A study of Mus musculus with 10 samples.

Results

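The p53 pathway was examined as a set of 33 mouse genes. They are the p53 family itself, the proteins that regulate it, and genes listed as targets in cell cycle arrest, DNA repair, cell death and stress defence. Whether p53 drives each listed gene in these cells was not tested. Members were chosen by gene symbol, and all 33 were found among the 25277 genes of the count table. Of them, 29 had enough counts to be tested, among 13464 such genes in all. The 4 that did not, Trp63, Cdkn2a, Rprm and Pidd1, are described by their counts.

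RNA was sequenced from mouse lung cells described as premalignant. About 500 cells went into a library, and SMART-Seq2 in a modified form was used, a method that amplifies full-length cDNA by PCR. All animals had received a Cre-carrying adenovirus 12 wk before, and every genotype carried at least 1 loxP-flanked (flox) allele of the gene for APE1, Apex1, so that no group was without Cre or without a flox allele. The control genotype APE1 flox/+ had 4 libraries, APE1 flox/flox, with both alleles flanked, had 3, and APE1 flox/N211A, with the mutant N211A allele beside a flox allele, had 3. The labels give no age or strain, name no other engineered allele, and do not say which promoter drove Cre, which share of the cells had recombined, or whether replicates came from separate animals, so p-values measure the spread between these samples. APE1 is the endonuclease that cuts DNA at sites that have lost a base, and the title of the series links it to the stability of DNA G-quadruplexes, four-stranded structures of guanine-rich DNA.

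p53, encoded by Trp53 in the mouse, is a transcription factor that is held at a low level by the ubiquitin ligase Mdm2 and its partner Mdm4 and is stabilised, mainly at the level of the protein, when DNA is damaged. It then raises transcription of genes that stop the cell cycle, repair DNA or kill the cell, and of Mdm2 itself, which closes a feedback loop. In the lung, loss of p53 is known to let adenomas advance to adenocarcinoma. The level of Trp53 RNA is therefore one measure, and that of its target RNAs another.

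p53 recognises a response element made of 2 copies of a 10-base unit. The 250 bases before each RefSeq gene start (GRCm38.p6) were searched on both strands, and 27 of the 33 members had such a sequence, with 35 starts between them. A response element, searched as 2 adjacent units with at most 1 mismatch outside the 4 central bases of each unit, was found at 1 of the 35 starts and at 9 of 22450 starts of all genes in the table (0.0401%). That start belongs to Cdkn1a, which encodes the cell cycle inhibitor p21. It is the farther upstream of the 2 Cdkn1a starts, and its element lies 51 to 32 bases before it. The sequence is shown because Cdkn1a is the member with the highest level for its length in these libraries and carries the textbook p53 site, and the capitals mark the element, at chr17:29090729-29090975, plus strand.
Cdkn1a: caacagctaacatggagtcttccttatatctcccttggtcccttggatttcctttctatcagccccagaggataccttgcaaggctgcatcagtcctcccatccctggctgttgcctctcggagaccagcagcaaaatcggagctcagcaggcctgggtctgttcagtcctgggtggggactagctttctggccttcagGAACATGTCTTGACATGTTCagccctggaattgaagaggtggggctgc
A single exact unit was found at 31.4% of the members' starts and at 6.41% of all starts. Counts were summed over each gene, so the transcripts of the 2 Cdkn1a starts were not separated here.

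A G-quadruplex motif, searched as 4 runs of at least 3 G with 1 to 7 bases between runs, was found at 11 of the 35 starts (31.4%) and at 19.7% of all starts. Among the members whose libraries did not overlap between genotypes, as described further down, Trp53inp2 and Ppm1d held one and Gadd45g did not, 1 of the 2 Sesn1 starts held one, and Zmat3 had no start sequence in the table used. The motif was also found at a start of Btg2, Phlda3, Rprm, Trp73, Ei24, Pml, Polk and Eda2r. Their libraries overlapped in every comparison. The motifs of Trp53inp2 and Ppm1d are shown with the motif in capitals, at chr2:155381636-155381665 and chr11:85311211-85311240, both on the plus strand of GRCm38.p6.
Trp53inp2: gtGGGTAACTGGGGGCAGGGAATTCGGGcc
Ppm1d: tatggtGGGCGCGGGCGGGCGGGGagcgag
These are matches of letters. No binding of p53 or APE1 and no DNA structure was measured in these libraries.

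Depth was 13221853 to 17707731 counts per flox/+ library, 10672334 to 53678659 per flox/flox library, and 8955368 to 17070817 per flox/N211A library. Levels are given as CPM, read counts normalised to a common library total after TMM scaling, in the order of the replicate numbers. Flox/flox replicates 2 and 3 stood apart, with rank correlations to other libraries of 0.560 to 0.665 over the genes tested, against 0.660 to 0.898 among the other 8. In flox/flox replicate 2, 34.2% of all genes tested and 7 of the 29 members tested (24.1%) had 0 counts, while in the other 9 libraries it was 2.82% to 16.6% of all genes and 0% to 10.3% of the members. Flox/flox replicate 3, the deepest library, held the highest level of 14 of the 29 members and of 28.4% of all genes tested. Y-linked genes lay above Xist in 3 libraries, flox/+ replicates 2 and 4 with flox/flox replicate 2, and below it in the other 7, which include all of flox/N211A. Apex1 itself stood at 4.12, 15.9, 35.9 and 54.1 CPM in flox/+, at 6.02, 0 and 0.573 CPM in flox/flox and at 7.86, 12.9 and 6.45 CPM in flox/N211A. The control's replicate 1 was thus below flox/flox replicate 1, and the exons that the flox alleles flank are not named in the labels, so these whole-gene counts are a limited check of the deletion.

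**Figure D1:**
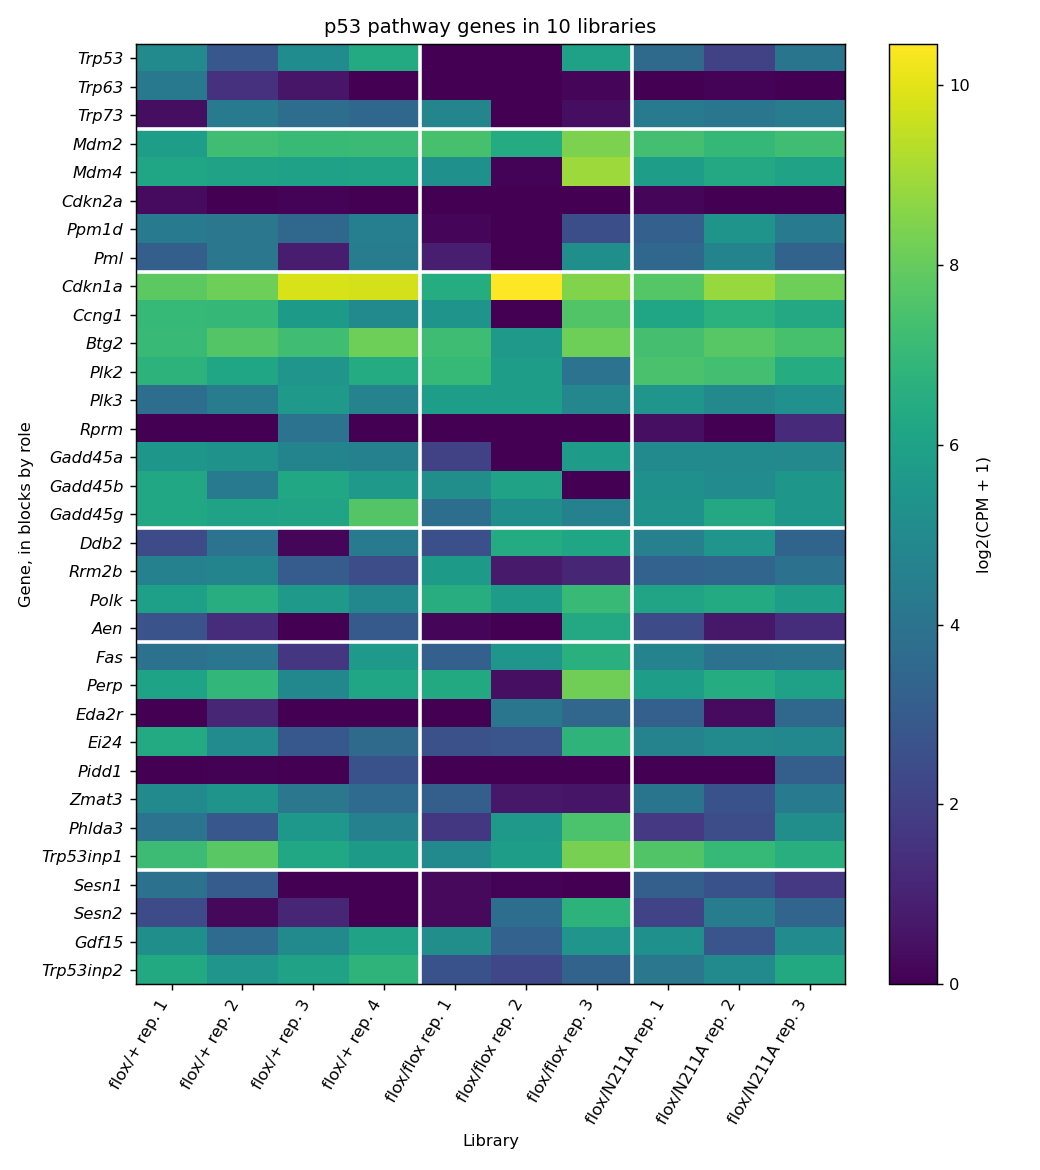
Level of each of the 33 p53 pathway genes (rows, in blocks by role: family, regulators, arrest, repair, death, stress) in the 10 libraries (columns), as log2(CPM + 1), with brighter colours for higher levels. Flox/flox replicate 2 holds 11 genes at 0 counts and the highest Cdkn1a level, 1403 CPM, while the 3 flox/N211A columns look alike and near those of flox/+.

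Trp53 (chr11:69580359-69591873, GRCm38, as for all gene positions) RNA was present in every flox/+ and flox/N211A library and absent from 2 of the 3 flox/flox libraries. Its level was 31.1, 6.09, 32.7 and 83.1 CPM in flox/+. In flox/flox it was 0, 0 and 62.4 CPM, where 0 counts allow up to 0.282 CPM in replicate 1 and 0.260 in replicate 2 (3 counts each, counting error only). In flox/N211A it was 11.4, 3.24 and 15.8 CPM. The genotypes overlapped, and flox/flox held both the 2 lowest libraries and the second highest. Mean levels were 38.3 ± 32.3 CPM (SD, n = 4) for flox/+, 20.8 ± 36.0 (SD, n = 3) for flox/flox, and 10.2 ± 6.39 (SD, n = 3) for flox/N211A. Against flox/+, edgeR gave a log2 fold change of -0.88 in flox/flox (SE 1.75, adjusted p = 0.875) and of -1.91 in flox/N211A (SE 1.82, adjusted p = 1.00). In a bulk library, fewer cells of a type and less RNA per cell cannot be told apart, here and in all values that follow.

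The 2 relatives of p53 were scarce. Trp63, which encodes the p53 relative p63 of basal epithelial cells, stood at 17.6, 1.79, 0.530 and 0 CPM in flox/+, at 0, 0 and 0.149 in flox/flox and at 0, 0.0599 and 0 in flox/N211A. Its level therefore came from flox/+ replicate 1. Of the 6 basal cell markers, none had enough counts to be tested, no flox/+ library had more than 0.222 CPM of them in sum, and Krt5, the keratin that defines basal cells, had 0 counts in every flox/+ library. Trp73, which encodes p73, known in mouse airways for its part in making multiciliated cells, stood at 0.299, 19.1, 12.4 and 10.5 CPM in flox/+. In flox/flox it stood at 26.1, 0 and 0.324 CPM, and in flox/N211A at 19.1, 16.4 and 19.7. Flox/N211A libraries lay close together, while flox/flox held both the highest and the lowest library. Of 12 ciliated cell markers, 11 were tested, and their summed level was 751 to 4118 CPM in flox/+, 2965 to 9726 in flox/flox and 1665 to 2311 in flox/N211A. The 2 highest sums, 7924 and 9726 CPM, belonged to flox/flox replicates 2 and 3, where Trp73 was at 0 and 0.324 CPM. The strand setting of the counts is not known here, and Trp73 shares 280 exon bases with the antisense gene Trp73os.

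Mdm2 and Mdm4, which hold p53 down, were read in all libraries. Mdm2 (chr10:117688875-117710758) stood at 54.9, 151, 134 and 139 CPM in flox/+, at 169, 84.9 and 337 CPM in flox/flox and at 162, 122 and 150.0 CPM in flox/N211A. All 3 genotypes overlapped. Against flox/+, edgeR gave a log2 fold change of 0.72 in flox/flox (SE 0.53, adjusted p = 0.563) and of 0.27 in flox/N211A (SE 0.53, adjusted p = 1.00). Mdm4 was the steadiest member in the control, at 69.6, 63.5, 62.6 and 63.6 CPM, a mean of 64.8 ± 3.20 (SD, n = 4). Flox/N211A libraries lay around those values, at 56.3, 77.9 and 64.6 CPM. In flox/flox Mdm4 stood at 37.4, 0.0866 and 489 CPM, so its 3 libraries lay below, far below and above every library of the other genotypes. In raw reads that was 397, 1 and 19641.

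Among the other regulators, Cdkn2a, whose product p19Arf blocks Mdm2 and whose other product p16 blocks cyclin-dependent kinases, was nearly absent. It had 3 counts in flox/+ replicate 1, 1 count in flox/+ replicate 3, 1 in flox/N211A replicate 1 and 0 in the other 7 libraries, a level of at most 0.225 CPM. Ppm1d (chr11:85311244-85347066), the Wip1 phosphatase that switches p53 and its kinases off, stood at 18.9, 16.6, 10.3 and 22.2 CPM in flox/+, at 0.0941, 0 and 4.66 CPM in flox/flox and at 8.13, 41.9 and 18.4 CPM in flox/N211A. All flox/flox libraries lay below all others. The log2 fold change was -3.39 (SE 1.74, unadjusted p = 0.0688, edgeR adjusted p = 0.378) against flox/+, and for flox/N211A against flox/flox it was 3.82 (SE 1.82, unadjusted p = 0.0520, adjusted p = 0.420). Pml, the scaffold of nuclear bodies that recruit p53, ranged from 0 to 35.7 CPM over the 10 libraries, with its lowest and its highest value both in flox/flox.

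**Figure D2:**
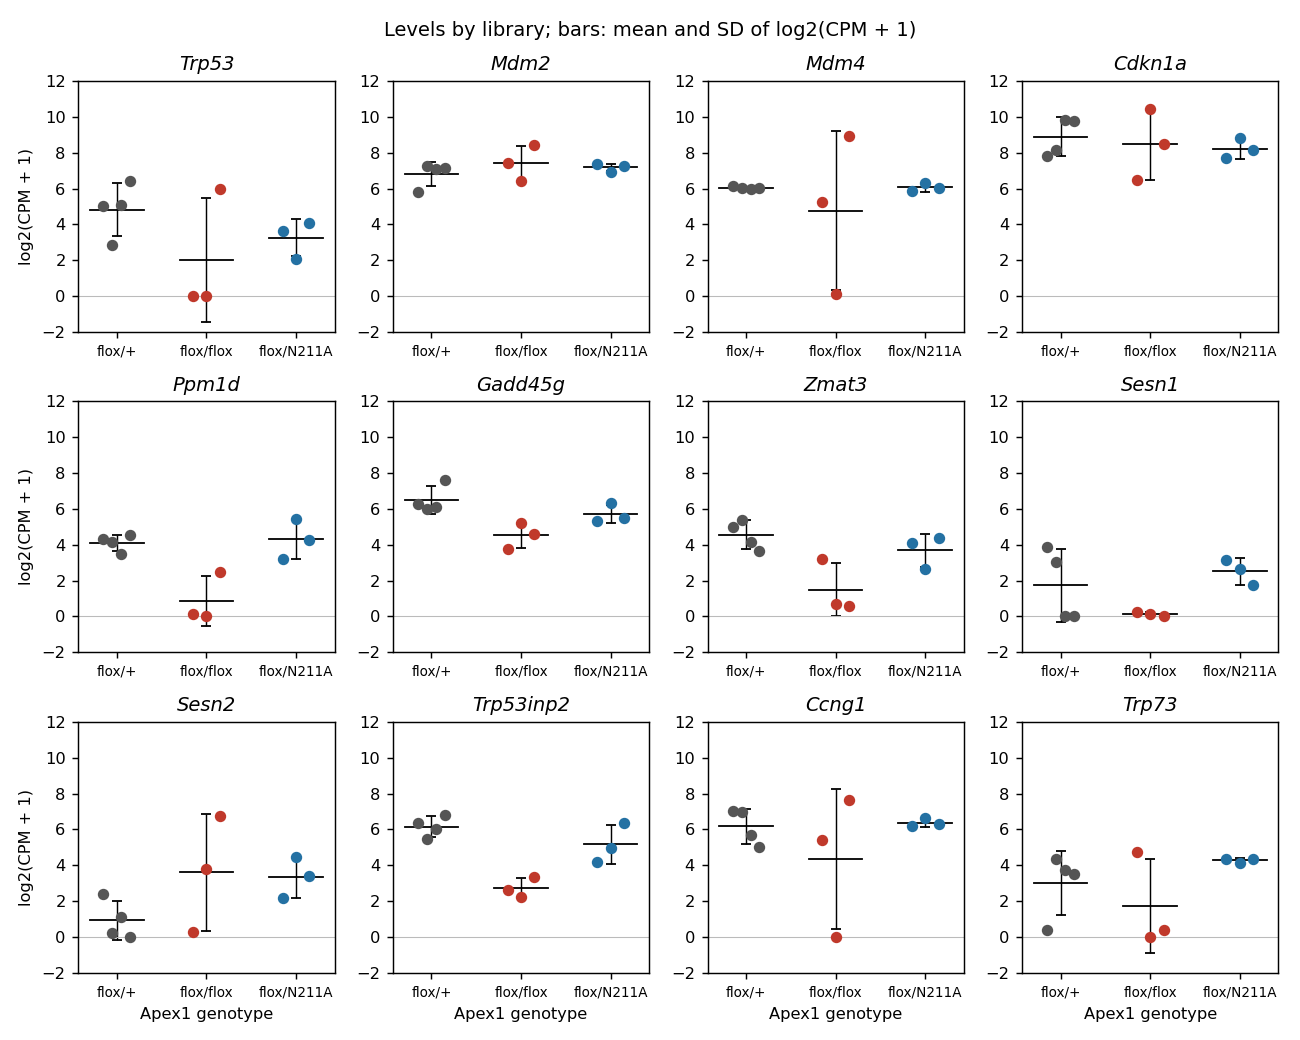
Level of 12 members in each library as log2(CPM + 1) on the vertical axis, by APE1 genotype (points: libraries; horizontal line and whiskers: mean and SD of the log2 values, n = 4, 3 and 3). Trp53inp2, Ppm1d, Zmat3 and Gadd45g have all flox/flox points below all flox/+ points, while the flox/flox points of Trp53, Mdm4, Ccng1 and Sesn2 are spread over most of the range.

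The arrest genes were led by Cdkn1a (chr17:29090976-29100727), which had the highest level per length of all members, with a median of 89.1 CPM per kb of exon over the 10 libraries, ahead of the antiproliferative Btg2 at 61.1 and Gadd45g at 46.2 on the same scale. Trp53 stood at 3.37 CPM per kb. Cdkn1a levels were 224, 281, 914 and 888 CPM in flox/+, 88.2, 1403 and 352 CPM in flox/flox and 204, 457 and 280.2 CPM in flox/N211A. Flox/flox held the lowest and the highest library, and both of these had 0 counts of Trp53. In flox/N211A the log2 fold change of Cdkn1a was -0.88 (SE 0.75, edgeR adjusted p = 1.00) against flox/+ and -0.97 (SE 0.79, adjusted p = 0.657) against flox/flox.

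Ccng1, the cyclin G1 that feeds back on Mdm2, stood at 127, 122, 50.9 and 31.3 CPM in flox/+, at 41.3, 0 and 196 CPM in flox/flox and at 71.2, 99.96 and 77.7 CPM in flox/N211A. Btg2 stood at 135, 202, 151 and 282 CPM in flox/+, at 149, 50.1 and 287 in flox/flox and at 166, 215 and 169 in flox/N211A. Neither separated the genotypes. The polo-like kinase gene Plk2 stood at 106, 72.1, 43.2 and 86.2 CPM in flox/+, at 127, 56.7 and 14.7 CPM in flox/flox and at 175, 162 and 88.5 CPM in flox/N211A, where every library lay above the flox/+ median but not above every flox/+ library (log2 fold change 0.88, SE 0.65, edgeR adjusted p = 1.00). Plk3, another stress-responsive polo-like kinase, ranged from 12.9 to 57.8 CPM. Rprm, an arrest gene that acts in G2, had 0 counts in 7 of 10 libraries and 14.7 CPM in flox/+ replicate 3.

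The Gadd45 genes, small stress proteins that bind p21 and PCNA, differed among themselves. Gadd45g (chr13:51846678-51848468) stood at 76.1, 63.5, 68.1 and 199 CPM in flox/+, at 12.8, 35.9 and 23.3 CPM in flox/flox and at 39.8, 78.3 and 44.9 CPM in flox/N211A. All flox/flox libraries lay below all others, with means of 24.0 ± 11.5 CPM (SD, n = 3) against 102 ± 65.1 (SD, n = 4) in flox/+. Its log2 fold change was -2.08 (SE 0.70, unadjusted p = 0.00922, edgeR adjusted p = 0.270), and without flox/+ replicate 4, which carried the highest value, it was -1.53 (adjusted p = 0.457). Against flox/flox, flox/N211A was at 1.18 (SE 0.71, adjusted p = 0.518). Gadd45b stood at 75.9, 18.8, 75.9 and 49.0 CPM in flox/+, at 35.4, 63.5 and 0 CPM in flox/flox and at 37.3, 31.6 and 45.9 in flox/N211A, with flox/flox replicate 3, the deepest library, as the one with 0 counts. Gadd45a ranged from 0 in flox/flox replicate 2 to 52.3 CPM in flox/flox replicate 3 and lay between 29.4 and 31.5 CPM in the 3 flox/N211A libraries.

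Among the repair genes, Ddb2, a sensor of ultraviolet damage in nucleotide excision repair, stood at 4.34, 14.9, 0.132 and 19.4 CPM in flox/+, at 4.89, 85.2 and 71.0 CPM in flox/flox and at 22.3, 42.6 and 9.25 CPM in flox/N211A. Flox/flox replicates 2 and 3 were the highest libraries, and replicate 1 lay inside the flox/+ range (log2 fold change 2.47, SE 1.28, edgeR adjusted p = 0.388). Ddb2 shares 652 exon bases with Acp2 on the other strand, so part of its reads cannot be assigned. Polk, a polymerase that copies past damaged bases, stood at 58.3, 91.1, 49.7 and 28.1 CPM in flox/+, at 90.9, 54.2 and 131 CPM in flox/flox and at 67.4, 83.7 and 54.7 CPM in flox/N211A, and was among the members with the least spread. Rrm2b, the p53-induced subunit of ribonucleotide reductase, ranged from 0.693 to 51.5 CPM with both ends in flox/flox. The exonuclease gene Aen, placed in this group by the list used rather than as a repair gene, was at 79.1 CPM in flox/flox replicate 3. It was at no more than 6.72 CPM elsewhere.

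Of the 7 cell death genes tested, 6 had an edgeR fold change above 0 in flox/flox against flox/+ (85.7%, against 51.3% of all genes). By the difference of mean log2 CPM, 3 of 7 lay above 0, against 4960 of 13464 genes. Zmat3, which encodes an RNA-binding protein and p53 target, stood at 31.4, 41.3, 16.8 and 11.5 CPM in flox/+, at 8.09, 0.606 and 0.523 CPM in flox/flox and at 15.9, 5.21 and 19.4 CPM in flox/N211A. All flox/flox libraries lay below all flox/+ libraries, and replicate 1 lay above flox/N211A replicate 2. The log2 fold change was -3.04 (SE 1.46, unadjusted p = 0.0544, edgeR adjusted p = 0.353), and with flox/flox replicate 1 alone it was -1.64. Fas, the death receptor, stood at 14.4, 16.1, 2.12 and 47.4 CPM in flox/+, at 8.28, 42.8 and 99.5 CPM in flox/flox and at 24.9, 14.5 and 15.4 CPM in flox/N211A. Perp, a desmosome and death protein, stood at 65.1, 121, 28.5 and 69.5 CPM in flox/+, at 79.7, 0.347 and 293 CPM in flox/flox and at 55.4, 88.0 and 62.2 CPM in flox/N211A. For Perp, 1 flox/flox library lay below and 1 above all libraries of the other genotypes. For Fas, 1 flox/flox library lay above all others and the other two inside their range.

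Phlda3, an inhibitor of Akt, stood at 14.7, 6.20, 46.0 and 22.9 CPM in flox/+, at 2.26, 47.9 and 179 CPM in flox/flox and at 2.35, 4.49 and 34.8 CPM in flox/N211A. Trp53inp1, a nuclear protein that promotes p53 phosphorylation, stood at 143, 220.5, 74.9 and 50.4 CPM in flox/+, at 30.3, 57.8 and 318 CPM in flox/flox and at 194, 128 and 93.0 CPM in flox/N211A. Neither separated the genotypes. Eda2r, which encodes an ectodysplasin receptor, was at 0 counts in 3 of 4 flox/+ libraries. It reached 16.3 CPM in flox/flox replicate 2 and 10.5 CPM in flox/N211A replicate 3. Ei24, a membrane protein of the endoplasmic reticulum, ranged from 4.99 to 110.2 CPM, both in flox/flox. Pidd1, the platform that activates caspase-2, had 0 counts in 7 libraries and its highest level, 7.92 CPM, in flox/N211A replicate 3.

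Trp53inp2 (chr2:155381059-155389850), a relative of Trp53inp1 that acts in autophagy, had the smallest p among the members in flox/flox. It stood at 81.5, 42.3, 64.8 and 110.2 CPM in flox/+, at 5.18, 3.64 and 9.14 CPM in flox/flox and at 16.8, 30.7 and 80.3 CPM in flox/N211A. Flox/flox libraries lay close together and below all 7 others. The mean was 5.98 ± 2.84 CPM (SD, n = 3) against 74.7 ± 28.6 (SD, n = 4) for flox/+, while flox/N211A had 42.6 ± 33.4 (SD, n = 3). Its log2 fold change was -3.64 (SE 0.88, unadjusted p = 8.41e-04, edgeR adjusted p = 0.181) against flox/+, and between flox/N211A and flox/flox it was 2.83 (SE 0.87, unadjusted p = 0.00527, adjusted p = 0.386). With flox/flox replicate 1 alone in its group the first was -3.85 (adjusted p = 0.129), so the difference was about as large without the 2 libraries that stood apart. DESeq2, another count test, passed it at an adjusted p of 3.19e-06.

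The sestrins, which curb mTORC1 and oxidants, had fold changes of opposite sign in flox/flox against flox/+, neither past the adjusted threshold. Sesn1 stood at 13.9, 7.17, 0 and 0 CPM in flox/+, at 0.188, 0.0866 and 0.0249 CPM in flox/flox and at 8.04, 5.21 and 2.31 CPM in flox/N211A. Its flox/flox counts were 2, 1 and 1, and 2 of 4 flox/+ libraries had none, so only flox/N211A stood clear of flox/flox (edgeR log2 fold change 5.66, SE 2.87, unadjusted p = 0.0667, adjusted p = 0.443). Sesn2 stood at 4.27, 0.163, 1.19 and 0 CPM in flox/+, at 0.188, 12.9 and 108 CPM in flox/flox and at 3.43, 20.7 and 9.53 CPM in flox/N211A. Its log2 fold change was 4.84 (SE 1.92, unadjusted p = 0.0228, adjusted p = 0.302) for flox/flox against flox/+, carried by replicates 2 and 3, and -2.83 without them. Gdf15, a secreted stress cytokine, ranged from 5.75 to 64.3 CPM and overlapped in all 3 genotypes.

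**Figure D3:**
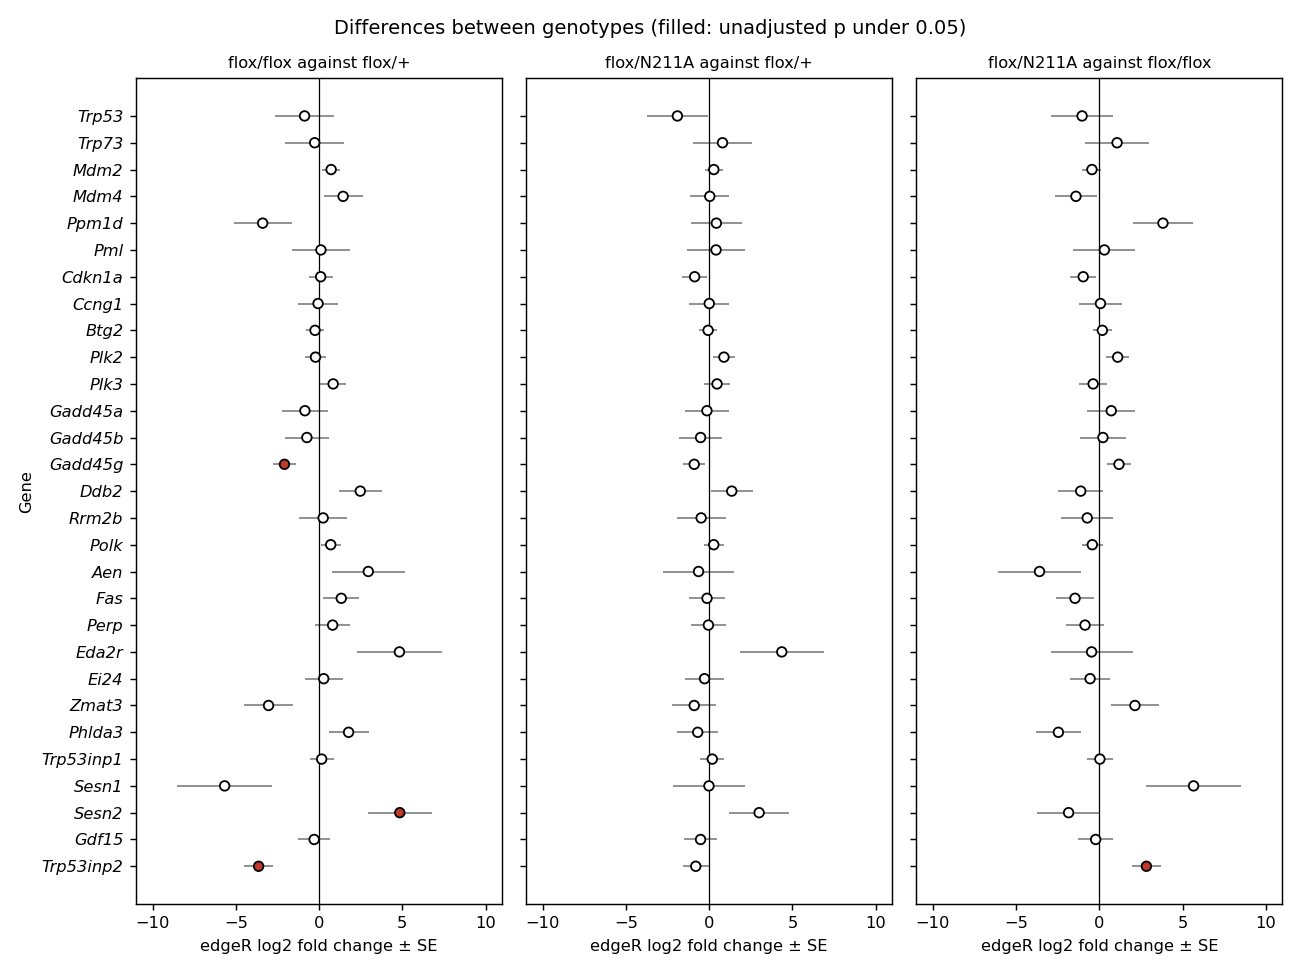
EdgeR log2 fold change (horizontal axis, bars: SE) of the 29 members tested (vertical axis) in the 3 comparisons, fitted to all 10 libraries. Filled points have an unadjusted p under 0.05: Gadd45g, Sesn2 and Trp53inp2 in flox/flox against flox/+, none in flox/N211A against flox/+, and Trp53inp2 in flox/N211A against flox/flox.

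The first comparison is between 2 flox alleles of Apex1 and 1, flox/flox against flox/+. No member passed edgeR's test at an adjusted p under 0.05, nor did any gene tested (0% called). At an unadjusted p under 0.05, 1 of 29 members was higher, Sesn2, where 5.73% of all genes were, and 2 were lower, Gadd45g and Trp53inp2, where 8.7% were (14.4% in both directions). Libraries did not overlap for 4 members, Ppm1d, Gadd45g, Zmat3 and Trp53inp2, all of them lower, where 7.19% of all genes were lower and 3.44% higher in that sense (10.6% in all). Of the members tested, 16 of 29 had an edgeR fold change above 0 (55.2%), against 51.3% of all genes. By the difference of mean log2 CPM, 8 of 29 members lay above 0, against 4960 of 13464 genes. The count of signs thus depended on the measure. The median difference of mean log2 CPM was -0.62 for the members and -0.62 for all genes. DESeq2 called 3 members lower, Trp53inp2, Gadd45g (adjusted p = 0.0162) and Ppm1d (adjusted p = 0.0439), and none higher, where it called 5.97% of all genes lower and 1.65% higher.

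Which members were at an unadjusted p under 0.05 in that comparison depended on the flox/flox libraries. Without replicate 3, 8 of 32 members tested were lower (8.61% of all genes), among them Trp53, Ppm1d, Gadd45a and Pml, and none was higher (3.43% of all genes). Without replicate 2, 4 were higher, Mdm2, Mdm4, Perp and Sesn2 (9.71% of all genes), and 2 lower (6.74%). Without replicate 1, 4 were higher, Ddb2, Eda2r, Phlda3 and Sesn2 (8.56%), and 5 lower (14.3%). With replicate 1 as the only flox/flox library, assumed to vary like the other genotypes, 7 were lower, Cdkn1a, Trp53, Gadd45a, Gadd45g, Ppm1d, Trp53inp1 and Trp53inp2 (8.36%), and none higher (3.5%). Trp53inp2 and Gadd45g were lower in each of these 4 sets. Both were already lower at that threshold with all libraries, and the sets share libraries, so this recurrence is not separate evidence. The share of all genes lower in all 4 sets was not counted. With any 1 library left out, 0 members passed the adjusted threshold. Of all genes, 0 to 399 passed, the most without flox/flox replicate 1.

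In the second comparison, flox/N211A against flox/+, the mutant allele takes the place of the wild-type one. No member passed edgeR's test, and no gene did (0% called). At an unadjusted p under 0.05 there were 0 of 29 members, where 1.43% of all genes were (0.728% higher and 0.706% lower), and DESeq2 called 0 members, with 0.0668% of all genes higher and 0.052% lower. The libraries of the genotypes overlapped for all 29 members tested, while they did not for 6.14% of all genes (3.51% higher and 2.64% lower). Fold changes ran from -1.91 for Trp53 to 4.36 for Eda2r (SE 2.51, adjusted p = 1.00), and 13 of 29 lay above 0 (44.8%), against 47.7% of all genes. The second highest was Sesn2 at 3.00 (SE 1.79, adjusted p = 1.00). By the difference of mean log2 CPM, 18 of 29 members lay above 0, against 7606 of 13464 genes.

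Flox/N211A against flox/flox compares the mutant allele with a second flox allele, and it shares its flox/flox libraries with the first comparison. No member and no gene passed edgeR's test (0% called). Trp53inp2 was the 1 member at an unadjusted p under 0.05, on the higher side, where 7.63% of all genes were, and none was lower (4.42% of all genes). Libraries did not overlap for 4 members, Ppm1d, Gadd45g, Sesn1 and Trp53inp2, all of them higher, where 18.6% of all genes did not overlap (13% higher and 5.61% lower). Fold changes lay above 0 for 13 of 29 members (44.8%), against 47.1% of all genes. DESeq2 called 2 members higher, Trp53inp2 (adjusted p = 0.00208) and Ppm1d (adjusted p = 0.0436), and 0 lower, where it called 4.28% of all genes higher and 0.676% lower. Here too the members at an unadjusted p under 0.05 changed with the flox/flox libraries. Without replicate 1, 4 of 32 were higher, Plk2, Trp53inp2, Trp73 and Zmat3 (14% of all genes), and 1 lower, Phlda3 (8.06%). Without replicate 2, Gadd45g and Trp53inp2 were higher (2 members, 5.65% of all genes) and Mdm4 and Perp lower (2 members, 7.33%). Without replicate 3, 6 were higher (7.52%) and 0 lower (2.43%), and with replicate 1 as the only flox/flox library 7 were higher, among them Cdkn1a, Trp53 and Trp53inp2 (6.64%), and 0 lower (1.29%). The median difference of mean log2 CPM was 1.23 for the members and 0.85 for all genes. By that measure 21 of 29 members lay above 0, against 8911 of 13464 genes, so here too the count of signs depended on the measure.

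Members varied more between flox/flox libraries than between libraries of the other genotypes. The median SD of log2 CPM over the 29 members was 0.99 in flox/+, 2.50 in flox/flox and 0.53 in flox/N211A, beside 1.17, 1.99 and 0.67 over all genes tested. An SD above 1 on that scale was found for 14, 23 and 10 members in the same order, against 57%, 73.3% and 35.1% of all genes. Polk, Plk3 and Mdm2 had the lowest SD averaged over the genotypes, and Mdm4 had the largest in flox/flox, 5.72, and the lowest in flox/+, 0.070. These spreads were described, not tested. At least 1 library had 0 counts for 15 of the 33 members, for 13 of them in flox/flox, 8 in flox/+ and 4 in flox/N211A.

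**Figure D4:**
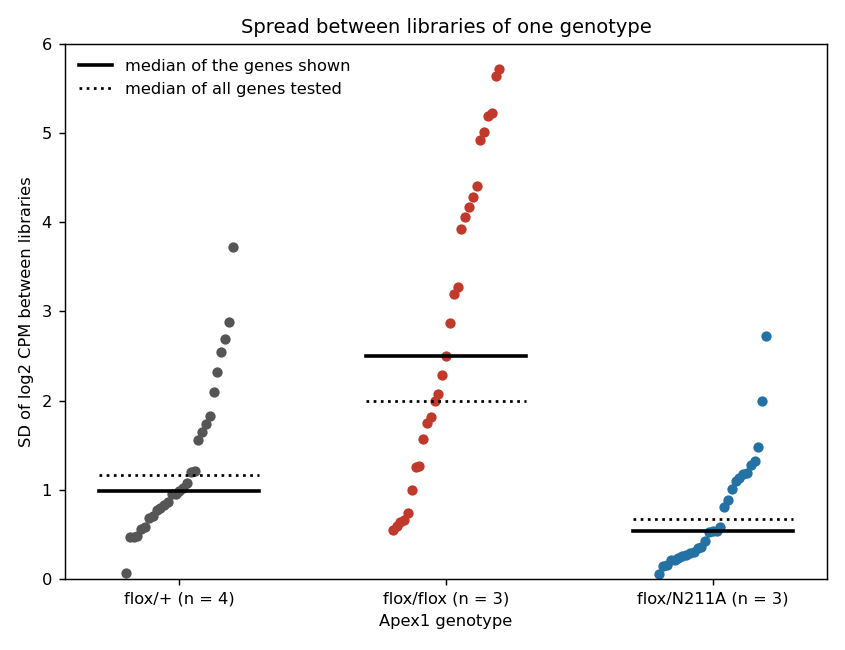
SD of log2 CPM between the libraries of 1 genotype (vertical axis) for each of the 29 members tested, sorted within the genotype, with the median of the members (solid line) and of all genes tested (dotted line). In flox/flox the members' median is 2.50, against 0.99 in flox/+ and 0.53 in flox/N211A.

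Other p53 targets were taken as a list of 27 genes, of which 26 were in the table and 25 tested. In flox/flox against flox/+, 2 were higher and 4 lower at an unadjusted p under 0.05, where 5.73% of all genes were higher and 8.7% lower. None passed the adjusted threshold, with a median difference of -0.47 beside -0.62 for all genes. Apaf1, the core of the apoptosome, stood at 1.72, 7.93, 25.0 and 27.2 CPM in flox/+ and at 0, 0 and 0.0498 CPM in flox/flox (edgeR adjusted p = 0.210). Pmaip1, which encodes the BH3-only death protein Noxa, had 0 counts in every flox/flox library, but also in 2 of 4 flox/+ libraries, whose others were at 52.8 and 8.42 CPM. Ephx1, an epoxide hydrolase of xenobiotic metabolism, was higher in flox/flox, at 251 ± 94.3 CPM (SD, n = 3) against 76.1 ± 25.9 (SD, n = 4), with an edgeR adjusted p of 0.230. Bbc3, which encodes Puma, was at 1.41, 47.8 and 13.8 CPM in flox/flox and at 0.278 to 3.91 CPM in flox/+; it was named after its values were seen.

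In flox/N211A against flox/+, 1 of these targets was lower at an unadjusted p under 0.05 (0.706% of all genes) and none was higher (0.728%). It was the pore-forming death protein gene Bax, at 7.41, 28.8 and 22.9 CPM against 43.6, 20.5, 97.0 and 108 CPM (log2 fold change -1.77, edgeR adjusted p = 1.00). Upstream kinases and cofactors of p53 formed a list of 20, all tested. In flox/flox against flox/+, 0 were higher and 3 lower at an unadjusted p under 0.05: the methyltransferase gene Setd7 at 0.376, 0.0866 and 0.149 CPM against 10.9 to 45.7 CPM (edgeR adjusted p = 0.139), the DNA-dependent protein kinase gene Prkdc at 0.0941, 0.433 and 0.0996 CPM against 3.14 to 19.0 CPM (adjusted p = 0.254) and Rpl5, a ribosomal protein that binds Mdm2, at 502 ± 405 CPM (SD, n = 3) against 1238 ± 800 (SD, n = 4). None of the 20 passed in flox/N211A against flox/+, where 0 of 20 were at an unadjusted p under 0.05 (1.43% of all genes). In flox/N211A, Setd7 stood at 20.3 to 37.6 CPM.

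Of 14 proliferation genes, which p53 lowers through p21, 12 were tested. In flox/flox against flox/+, 1 was higher at an unadjusted p under 0.05 (5.73% of all genes) and none lower (8.7%). In flox/N211A against flox/+, 1 of the 12 was higher (0.728% of all genes) and none lower (0.706%). The 14 genes summed to 30.7 to 93.9 CPM in flox/+, 20.9 to 68.0 in flox/flox and 52.3 to 109.9 in flox/N211A. Immediate early and dissociation genes, which share inducers with Btg2, Plk2, Plk3 and Gadd45b, formed a list of 15. In flox/flox against flox/+, 0 were higher (5.73% of all genes) and 1 lower (8.7%) at an unadjusted p under 0.05, the heat shock gene Hspa1b. The sum of the 15 was 4920 to 7294 CPM in flox/+, 2722 to 8866 in flox/flox and 4141 to 5869 in flox/N211A. Of 10 integrated stress response genes, 1 was higher, Sesn2 itself (5.73% of all genes), and 3 were lower (8.7%) in that comparison and sense. Among the 3 was the serine synthesis gene Psat1 at 0.0314 ± 0.0543 CPM (SD, n = 3) against 27.6 ± 27.0 (SD, n = 4). None of the 10 passed the adjusted threshold (lowest edgeR adjusted p = 0.132).

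Markers of cell types that the samples could hold differed in summed level. The 12 alveolar type II markers, all tested, summed to 56504 to 209332 CPM in flox/+, 28614 to 35374 in flox/flox and 55804 to 64296 in flox/N211A. In flox/flox against flox/+, 7 of the 12 were lower at an unadjusted p under 0.05 (8.7% of all genes) and none higher (5.73%). In flox/N211A against flox/+, 3 of the 12 were lower (0.706% of all genes) and none higher (0.728%). Ppm1d, Gadd45g, Zmat3 and Trp53inp2 were singled out further up because their flox/flox libraries lay below all flox/+ libraries. That they share the lower direction of these markers in flox/flox follows from that choice. Of the 11 ciliated markers tested, 10 were higher at an unadjusted p under 0.05 in flox/flox against flox/+ (5.73% of all genes). In flox/N211A against flox/+, 0 of the 11 were higher or lower at that threshold. The 8 alveolar type I markers summed to 992 to 2058 CPM in flox/+, 1154 to 1727 in flox/flox and 991 to 1408 in flox/N211A, and the 5 erythroid markers to 45.9 to 3016, 85.6 to 2948 and 0.841 to 2793 CPM. The 8 club cell markers summed to 31791 to 162515, 57650 to 210847 and 118173 to 254450 CPM in the same order of genotypes. The 12 leukocyte markers, of which 5 were tested, summed to 0 to 233 CPM in flox/+, 7.81 to 40.6 in flox/flox and 8.69 to 182 in flox/N211A, and Cd3e and Marco were at 0 in all flox/+ and flox/flox libraries. The 8 endothelial markers summed to 22.1 to 76.8, 3.98 to 96.7 and 52.9 to 156 CPM, and the 8 fibroblast markers, of which 3 were tested, to 0.163 to 80.5, 0 to 103 and 4.35 to 261 CPM. The part of these cell types in the members' differences was not tested.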

How the data were processed

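Libraries came from about 500 lung cells each by modified SMART-Seq2, per the labels' protocols. The submitters' processing notes name Trim Galore 0.5.0, HISAT2 2.1.0, featureCounts 1.6.4, DESeq2 and the mm10 genome. The deposited values are raw read counts per gene symbol, with no normalization. Annotation, strandedness and multi-mapping rule were not given in the sources used here. Without molecular identifiers, a floor of 3 counts covers counting error only.

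These counts went into edgeR 4.0.16 (R 4.3.3): filterByExpr on genotype, TMM scaling, and 1 quasi-likelihood model with genotype as its term over all 10 libraries, with two-sided tests and Benjamini-Hochberg adjusted p-values over 13464 genes at 0.05. CPM values use the same scaled totals. The SE is the absolute log2 fold change divided by the root of the F statistic. Differences of mean log2 CPM used a prior count of 2. The common dispersion was 1.53. Per-length levels divide by the exon length in GENCODE M21. Replicate pairs differed by a chi-square of 114 to 1067 per degree of freedom, far above sampling noise. That does not show whether replicates came from separate animals. Each library was counted as 1 sample. Same-numbered libraries of different genotypes deviated from their group means with correlations of -0.065 to 0.098, and the main model did not pair them by number. With so few and variable libraries, these values cannot exclude a batch shared by number.

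Members and gene lists were chosen with earlier results of these data known, and no list was tested as a set. Values per library are given for the p53 axis and family, for members with an unadjusted p under 0.05 or libraries that do not overlap, and for those averaging 50 CPM or more in any genotype, and, of the other lists, for up to 4 genes with the smallest p. Alternatives were DESeq2 1.42.0, limma 3.58.1 voom with quality weights, other scalings and filters, added terms, and libraries left out. The test was also run on simulated counts with planted changes. The outcome is not given here, and no result rests on it.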

Additional observations from a re-analysis of the deposited data

Results flagged for a closer look

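In flox/+, the 1 genotype with 4 libraries, the gap between 1 library and the nearest other was compared with the whole range (Dixon's ratio). Of the 33 members, 6 had a library past the limit that chance passes about 1 in 20 times for normally distributed values. CPM values with a wide spread and many 0 counts need not follow that rate, so 6 of 33 does not measure an excess over chance. Gadd45g stood at 199 CPM in flox/+ replicate 4, with the next library at 76.1. Trp63 stood at 17.6 CPM in flox/+ replicate 1, with the next at 1.79. Rprm stood at 14.7 CPM in flox/+ replicate 3, and Eda2r at 1.20 CPM in replicate 2, each with 0 counts in the other 3. In such a case the ratio is 1 at any level. Pidd1 stood at 5.22 CPM in flox/+ replicate 4, with the next at 0.0543. Mdm4 stood at 69.6 CPM in flox/+ replicate 1, with the next at 63.6, within a narrow range.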

How the results depend on the processing

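By edgeR the count of members called was 0 in all 3 comparisons, and it was 0 under every alternative run except DESeq2, which called 3 in flox/flox against flox/+, 0 in flox/N211A against flox/+ and 2 in flox/N211A against flox/flox. Over all genes, DESeq2 called 1026, 16 and 667 in that order, no filter on low counts gave 196, 13 and 96, and leaving out flox/flox replicates 2 and 3 together gave 49 in the first and 16 in the third. Leaving out 1 library gave 0 to 399, 0 and 0 to 244, the highest without flox/flox replicate 1. The replicate number as a block changed no call of a member and gave 1 gene called in flox/flox against flox/+. The members' median difference in flox/flox against flox/+ was -0.62, -1.51 with no filter and -1.66 to -0.15 with 1 library left out, where that of all genes was -0.80 to -0.24; the cause was not tested. With 1 library left out it was -0.11 to 0.43 for flox/N211A against flox/+ and 0.52 to 1.72 for flox/N211A against flox/flox. Sesn2 turned to -2.83 (edgeR adjusted p = 0.703) without flox/flox replicates 2 and 3. Trp53inp2 was lower in flox/flox than in flox/+ in all 21 alternatives, from -4.06 to -3.36, with adjusted p from 3.19e-06 to 0.787. A biological coefficient of variation of 1.24 limits what 3 or 4 libraries can show.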
